A study of Mus musculus with 3 samples.

Results

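The mouse Snrpn and Ube3a domain is an imprinted stretch of chromosome 7 that corresponds to the Prader-Willi and Angelman syndrome region of human. Its members here were Snrpn, Snurf, Ndn, Magel2, Mkrn3 and Peg12, which are known to be expressed from the paternal allele, and Ube3a and Atp10a, listed as expressed from the maternal allele. They were represented by every probe set whose only gene symbol in the platform annotation was one of these names, which gave 22 of the 45037 probe sets measured, for 7 of the 8 genes. On the whole array, 18193 genes were named by probe sets with 1 symbol. Ndn had 8 of the 22 probe sets, Ube3a 6, Atp10a 4, and Snrpn, Magel2, Mkrn3 and Peg12 1 each. Snurf had none of its own, because 6 further probe sets are listed under both Snurf and Snrpn. Those 6 lie outside the rule and are given separately, with no value assigned to either gene.

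Whole embryos were taken at 8.5 dpc (days post coitum), pooled by litter with both sexes together, and each pool was hybridised to 1 Affymetrix array, 3 in all. The control group was normal, with 1 pool of 6 C57Bl/6J embryos. The mutant group was 2 pools, of 8 embryos (mutant pool 1) and 6 embryos (mutant pool 2), which the design calls biological replicates. The mutant embryos were Dnmt3l-/+, had a Dnmt3l-/- mother and a wildtype father, and were on a C57Bl/6J background. They therefore carried a wildtype paternal Dnmt3l allele, and the model concerns what the mother's oocytes lacked. DNMT3L helps the enzymes that place new DNA methylation, and oocytes without it fail to lay down maternal methylation imprints. The comparison asks how the transcripts of the domain stand in embryos from such oocytes. DNA methylation was not measured in these data, so the state of the domain's imprint in each pool is not known here.

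In the domain, the maternal allele is methylated in the oocyte at the main Snurf-Snrpn promoter, part of the imprinting control region, and the paternal copies of the genes around it are then the active ones. Ube3a is silenced on the paternal chromosome mainly in neurons, where a long antisense RNA from the Snurf-Snrpn promoter region, Snhg14, runs across it. In most other cells both Ube3a alleles are active. The domain's paternally expressed genes are best known from the developing nervous system.

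The sequences around the gene starts are shown because CpG dinucleotides are the bases that carry the mark. The RefSeq table of build GRCm38.p6 held a window of 300 bases, 250 before and 50 after the annotated start, for each of the 8 genes, 10 different windows in all. CpG dinucleotides are in capitals. The first window, on the minus strand at chr7:60005150-60005449, is the start that Snurf and Snrpn share and holds 7 CpG. The second, on the minus strand at chr7:60450128-60450427, is the most upstream Snrpn start, shared with Snhg14, and holds 2. The next is Ndn the plus strand at chr7:62348027-62348326, with 11, and the last is Ube3a on the plus strand at chr7:59228500-59228799, with 29.
Snurf-Snrpn: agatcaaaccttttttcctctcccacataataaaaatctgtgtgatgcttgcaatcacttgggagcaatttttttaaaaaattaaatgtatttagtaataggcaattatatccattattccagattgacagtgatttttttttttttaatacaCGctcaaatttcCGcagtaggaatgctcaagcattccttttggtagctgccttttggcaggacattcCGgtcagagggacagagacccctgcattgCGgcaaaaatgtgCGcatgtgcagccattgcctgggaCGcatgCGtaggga
Snrpn upstream and Snhg14: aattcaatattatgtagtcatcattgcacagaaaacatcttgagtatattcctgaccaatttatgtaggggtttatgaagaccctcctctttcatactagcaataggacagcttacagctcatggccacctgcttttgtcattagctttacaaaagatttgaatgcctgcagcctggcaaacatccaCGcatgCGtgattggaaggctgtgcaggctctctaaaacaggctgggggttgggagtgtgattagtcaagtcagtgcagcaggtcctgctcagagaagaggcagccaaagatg
Ndn: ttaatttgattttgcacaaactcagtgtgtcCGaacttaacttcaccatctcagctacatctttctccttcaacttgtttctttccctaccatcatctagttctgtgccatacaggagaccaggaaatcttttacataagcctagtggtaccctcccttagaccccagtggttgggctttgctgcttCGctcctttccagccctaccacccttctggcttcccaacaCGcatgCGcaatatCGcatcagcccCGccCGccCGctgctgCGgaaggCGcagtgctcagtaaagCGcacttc
Ube3a: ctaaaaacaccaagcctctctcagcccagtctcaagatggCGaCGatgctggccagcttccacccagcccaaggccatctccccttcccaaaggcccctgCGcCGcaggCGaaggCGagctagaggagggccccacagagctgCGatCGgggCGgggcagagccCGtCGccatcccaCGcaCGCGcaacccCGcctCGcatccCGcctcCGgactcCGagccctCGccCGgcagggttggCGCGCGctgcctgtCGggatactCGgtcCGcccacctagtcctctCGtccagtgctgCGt

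Among 32817 windows of all genes the median was 7 CpG, equal to the count in the Snurf-Snrpn window. Fewer CpG than in the Ube3a window were found in 87.1% of them. Each window ends 50 bases after the start, and CpG beyond it were not counted. The 7 CpG therefore do not describe the whole imprinting control region. Of the remaining 6 windows, the other upstream Snrpn starts held 4 CpG (chr7:60047929-60048228) and 3 (chr7:60140176-60140475), and the others held 10 (Magel2), 15 (Mkrn3), 12 (Peg12) and 20 (Atp10a). The letters CGCATGCG, which read alike on both strands, contain a CpG at each end and form the core of the site recognised by the transcription factor NRF1. They occurred once in 5 of the 10 windows, against 1.86% of all windows. These 5 were the 4 Snrpn starts, of which the 3 upstream ones resemble each other, and Ndn. Counted from the first transcribed base, they began at 36 in the Snurf-Snrpn window, at -63 in the most upstream Snrpn window and at -23 in Ndn. This motif was chosen after the sequences had been read, and a match describes letters, not binding.

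No member probe set was called by the test applied, which does not show that none changed. Of the 22, 15 passed the filter on dim probe sets, which kept those whose average log2 value was at or above the 40th percentile. Limma called 0 of these 15 at a Benjamini-Hochberg adjusted p under 0.05, where 0.577% of all 27022 kept probe sets were called. At an unadjusted p under 0.05 (limma) it was again 0 of 15, where the background was 13.6%. None was at least 2-fold different in the same direction in both mutant pools, against 4.47% of all. Higher in both mutant pools were 8 of the 15 (background 32.2%), lower in both were 5 (background 42.5%), and 2 differed in sign. These counts repeat genes, since 7 of the 15 were of Ndn and 5 of Ube3a. The 8 higher were 5 of Ndn, 2 of Ube3a and 1 of Mkrn3, and the 5 lower were 2 of Ndn and 3 of Ube3a. The lowest adjusted p was 0.377, and log2 ratios ran from -0.49 to 0.47 around a median of 0.17, where all kept probe sets had a median of -0.066. Log2 ratios compare log2(signal + 31.92) in mutant and normal pools and understate the change of dim probe sets. The fit has 1 residual degree of freedom, from the 2 mutant pools, and takes the 1 normal pool to vary as they do. In RNA of whole embryos, fewer cells of a type and less RNA per cell cannot be told apart.

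Marker genes of several tissues differed between the pools. These lists were chosen with earlier results of these data known, so their counts and medians are description and not independent support. Without the filter on dim probe sets, or without a trend of variance on signal, no probe set of the array was called. The calls below therefore rest on both choices. For the embryo proper, 17 of 18 neural, 15 of 15 cardiac and 9 of 13 somite and mesoderm genes had a kept probe set. The filter kept 27022 of 45037 probe sets on their average over the groups, so passing it does not show presence in each pool. Yolk sac endoderm genes were higher in both mutant pools for 19 of 19 kept (of 21 listed), with 17 called and a median log2 ratio of 2.93 (2.76 in pool 1 and 2.89 in pool 2). The 17 were Apob, Apoa4, Fgb, Cldn2, Cubn, Amn, Apoc2, Apom, Fga, Rbp4, Apoa1, Fgg, Hnf4a, Spink1, Slc39a5, Afp and Ttr, among them genes of apolipoproteins, fibrinogen chains and other plasma proteins. For embryonic erythroid genes the median was 1.52 (11 kept, with Slc4a1 and Hba-x called). Neural genes had a median of -0.46 over 17 (-0.75 in pool 1 and -0.27 in pool 2), with none called and 12 lower in both pools. Cardiac genes had a median of -0.80 over 15 (-1.17 in pool 1 and -0.36 in pool 2) and somite and mesoderm genes -0.68 over 9 (-0.80 and -0.36), none called. The trophoblast and decidua lists were mixed in direction. Trophoblast genes had a median of 0.75 over 6, with 3 higher and 2 lower in both mutant pools and 1 called (Esx1, higher). Decidua and uterus genes had -0.29 over 10, with 2 higher and 6 lower in both and 1 called (Prl8a2, lower). The part of these shifts in the domain's values was not tested. Median signals were 144 for the normal pool and 130.0 and 139.6 for the mutant pools, and having only 3 arrays limits the precision of every value.

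**Figure D1:**
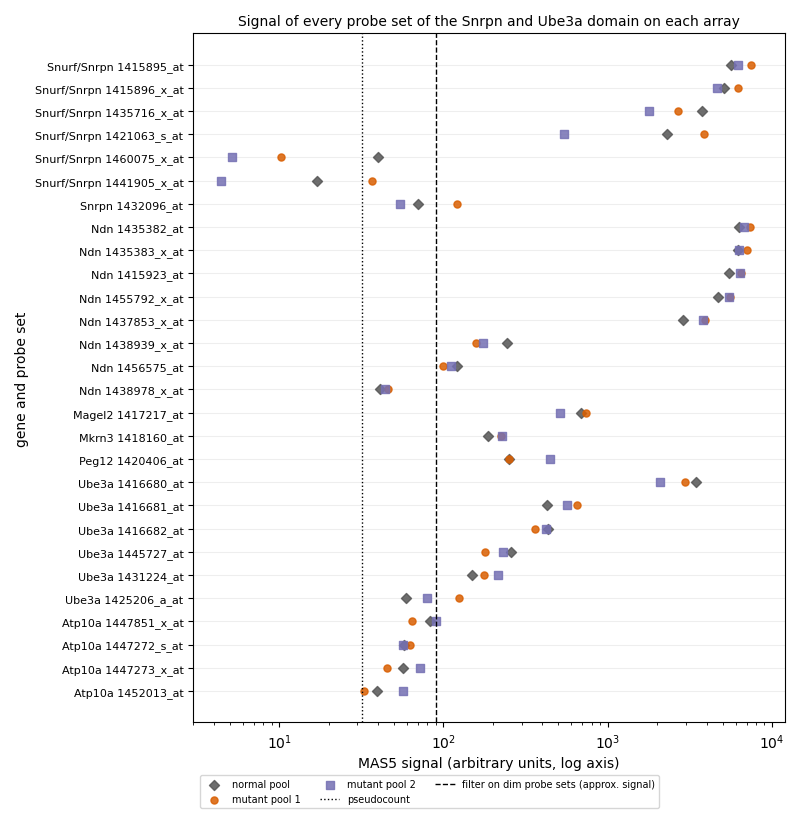
Signal (log axis) of the 22 member probe sets and the 6 listed under both Snurf and Snrpn on the normal array (diamonds), mutant pool 1 (circles) and mutant pool 2 (squares), with the pseudocount and the approximate signal at the filter as vertical lines. The 5 bright Ndn probe sets run from 2865 (1437853_x_at) to 6290 on the normal array, and 1421063_s_at reads 2295, 3834 and 544.

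Snurf and Snrpn come from one bicistronic transcript. SNRPN protein, SmN, is a tissue-restricted member of the Sm family that forms the ring of spliceosomal small nuclear ribonucleoproteins, and Snurf codes for a small protein from the upstream reading frame. The only probe set listed under Snrpn alone, 1432096_at, read 69.8 in the normal pool, 122 in mutant pool 1 and 54.6 in mutant pool 2. The normal value lay between the mutants, and the probe set lay under the filter. The transcript itself was bright in other probe sets. Probe set 1415895_at, listed under both symbols, read 5601 in the normal pool and 7417 and 6185 in mutant pools 1 and 2. Both mutant values lay above the normal one, by a log2 ratio of 0.27 (SE 0.18, 95% interval -0.18 to 0.73), which limma did not call (adjusted p = 0.578). Probe set 1415896_x_at read 5079, 6185 and 4599.7, with the normal pool between the mutants and a log2 ratio of 0.07 (SE 0.22).

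The other bright Snurf and Snrpn probe sets read differently from these and from each other. Probe set 1435716_x_at read 3727 in the normal pool and 2688 and 1787 in the mutants. Both mutants were lower, with a log2 ratio of -0.76 (SE 0.28), an unadjusted p of 0.0400 and an adjusted p of 0.345 (limma). Probe set 1421063_s_at read 2295, 3834 and 544, so it was higher in mutant pool 1 (log2 ratio 0.73) and lower in mutant pool 2 (-2.01). Its gap of 2.75 between the mutant pools was matched or passed by 0.0629% of kept probe sets, whose median gap was 0.24. The mean log2 ratio of -0.64 (SE 1.03, limma adjusted p = 0.835) therefore rests on mutant pool 2. In Affymetrix naming, the suffix x marks probe sets with probes that can match unrelated sequences, and s marks probe sets shared by several transcripts. The remaining 2 were dim. Probe set 1460075_x_at read 40.2, 10.3 and 5.18, and 1441905_x_at read 17.1, 36.9 and 4.45. Of the 4 that passed the filter, 1 read higher and 1 lower in both mutant pools, 2 had opposite signs in the pools, and none was called.

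Ndn codes for necdin, a protein of the MAGE family that restrains cell division and supports the differentiation of neurons. Its 8 probe sets are listed under the same gene, which has no introns, and are not replicates; where each one lies in the transcript was not analysed here. The brightest, 1435382_at, read 6289.8 in the normal pool and 7371 and 6791 in mutant pools 1 and 2. Both mutants were above the normal value, by a log2 ratio of 0.17 (SE 0.16, interval -0.23 to 0.56, limma adjusted p = 0.698). Probe set 1435383_x_at read 6224, 7094 and 6282, with mutant pool 2 next to the normal pool (log2 ratio 0.10). Probe sets 1415923_at (5437, 6519 and 6374) and 1455792_x_at (4686, 5553 and 5452) were higher in both mutants, with log2 ratios of 0.24 and 0.23.

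The largest Ndn difference upwards was that of 1437853_x_at. It read 2865 in the normal pool and 3902 and 3819 in the mutants, which lay closer to each other than to the normal pool. Its log2 ratio was 0.43 (SE 0.18, interval -0.012 to 0.86), with an unadjusted p of 0.0546 and an adjusted p of 0.377 (limma). Both dimmer kept Ndn probe sets pointed the other way. Probe set 1438939_x_at read 245, 157 and 173, lower in both mutants by a log2 ratio of -0.49 (SE 0.31, adjusted p = 0.554). Probe set 1456575_at read 120.5, 98.9 and 111 (log2 ratio -0.15), while 1438978_x_at, under the filter, read 40.9, 46.3 and 44.2, slightly higher in both mutants.

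For Ndn the fit gave an upper limit as well as an estimate. The upper bound of the 95% interval was below 1 on the log2 scale, a doubling, for all 7 kept Ndn probe sets, and the highest of these bounds was 0.86. With median centring of the arrays the highest bound was 1.02, and without a trend of variance on signal it was 1.07, so 1 probe set then reached a doubling. These bounds hold only as far as the normal pool varies like the mutant pools. The bound of 0.86 was that of 1437853_x_at. Like some other Ndn probe sets it has the suffix x, for probes that can match unrelated sequences.

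Magel2 codes for a MAGE protein that acts with the ubiquitin ligase TRIM27 in protein recycling from endosomes. Its probe set read 688 in the normal pool, 743 in mutant pool 1 and 512 in mutant pool 2, so the normal value lay between the mutants (log2 ratio -0.15, SE 0.31, interval -0.92 to 0.62). Mkrn3, a makorin zinc finger protein known as a brake on the onset of puberty, read 187 in the normal pool and 224 and 228 in the mutants. The mutant pools were nearly equal and both above the normal pool, yet the log2 ratio of 0.24 (SE 0.30, interval -0.51 to 0.98) was not called (limma adjusted p = 0.780). Peg12, a relative of the Frat genes, whose proteins bind GSK3 in Wnt signalling, read 252 in the normal pool, 249.9 in mutant pool 1 and 446 in mutant pool 2. Mutant pool 1 read like the normal pool and mutant pool 2 alone was higher, with log2 ratios of -0.0099 and 0.75. The interval of Peg12, -0.61 to 1.36, was the widest among the 15 members tested and included a doubling.

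With each gene represented by its brightest kept probe set, the 4 paternally expressed members with a kept probe set (Ndn, Magel2, Mkrn3 and Peg12) had a median log2 ratio of 0.20. It was 0.17 in mutant pool 1 and 0.18 in mutant pool 2. Single genes differed more between the pools, with Magel2 at 0.11 and -0.41 and Peg12 at -0.0099 and 0.75, so the near-equal medians do not show that each gene repeated. Adding the Snurf and Snrpn transcript by its brightest probe set, a choice made after the data were seen, gave 0.24 over 5. That probe set had 0.27, while the other kept ones listed under both symbols had 0.07, -0.76 and -0.64. The median of all kept ones listed under both symbols was -0.29, so the added value depends on the probe set chosen.

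**Figure D2:**
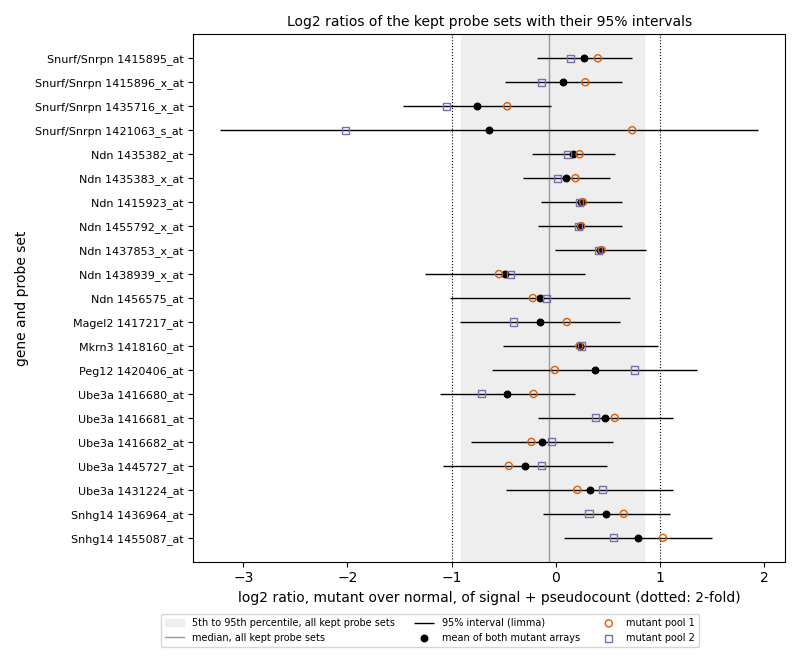
Log2 ratio of mutant over normal (horizontal axis) for the 15 kept member probe sets, the 4 kept ones listed under both Snurf and Snrpn and 2 of Snhg14. Filled points are means of both mutant pools, open symbols are single pools, bars are 95% intervals from limma and the grey band spans the 5th to the 95th percentile of all kept probe sets, -0.91 to 0.84. All member means fall inside the band, between -0.49 and 0.47.

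Ube3a codes for an E3 ubiquitin ligase of the HECT type. Its brightest probe set, 1416680_at, read 3458 in the normal pool and 2975 and 2095 in mutant pools 1 and 2. Both mutants were lower, and mutant pool 2 more so, with log2 ratios of -0.21 and -0.71. The mean of -0.46 (SE 0.26, interval -1.11 to 0.18) was not called by limma (adjusted p = 0.508). Probe set 1416681_at had the opposite sign. It read 428 in the normal pool and 649 and 566 in the mutants, both higher, giving a log2 ratio of 0.47 (SE 0.26, interval -0.18 to 1.12, limma adjusted p = 0.503).

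The remaining Ube3a probe sets were also split. Probe set 1416682_at read 433, 363 and 421 (log2 ratio -0.14), and 1445727_at read 258, 179.9 and 231 (-0.30). In both, the mutants were lower and mutant pool 2 was the closer to the normal pool. Probe set 1431224_at read 149, 177 and 214 (0.33), and 1425206_a_at, under the filter, read 59.5, 125 and 80.0, both higher in the mutants. Of the 5 kept Ube3a probe sets 3 were lower and 2 higher in both mutant pools, so the direction for the gene depended on the probe set. Taking the mean of the kept probe sets gave -0.020 in place of -0.46. Which Ube3a transcripts or which strand each probe set reads was not analysed here.

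Atp10a codes for a phospholipid flippase of the P4-ATPase family, and its imprinting in mouse has been described variably. None of its 4 probe sets passed the filter. They read 83.0, 57.6, 56.5 and 39.3 in the normal pool, and the corresponding values were 64.3, 62.2, 45.2 and 32.8 in mutant pool 1 and 90.5, 57.0, 72.2 and 56.6 in mutant pool 2. The normal value lay between the mutants in each of the 4, so no level or difference was resolved for Atp10a.

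Snhg14, the long noncoding RNA that starts upstream of Snurf-Snrpn and runs antisense to Ube3a, is no member but overlaps them. Probe set 1436964_at read 1065 in the normal pool and 1690.0 and 1335 in mutant pools 1 and 2, a log2 ratio of 0.48 (SE 0.24, limma adjusted p = 0.468). Probe set 1455087_at read 733, 1528 and 1088. Both mutants were higher, with a log2 ratio of 0.79 (SE 0.28, interval 0.083 to 1.49), an unadjusted p of 0.0345 and an adjusted p of 0.327 (limma). Another, under the filter, read 1.63, 54.4 and 20.8. All 3 were higher in both mutant pools and none was called. Over the alternatives tried, the lowest adjusted p of a Snhg14 probe set ranged from 0.295 to 0.434. Ipw, a noncoding RNA inside Snhg14, read 5.50, 4.53 and 10.7, and Gm26504, the entry for the small nucleolar RNA Snord116, read 9.14, 3.69 and 20.3. Both were dim on every array.

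**Figure D3:**
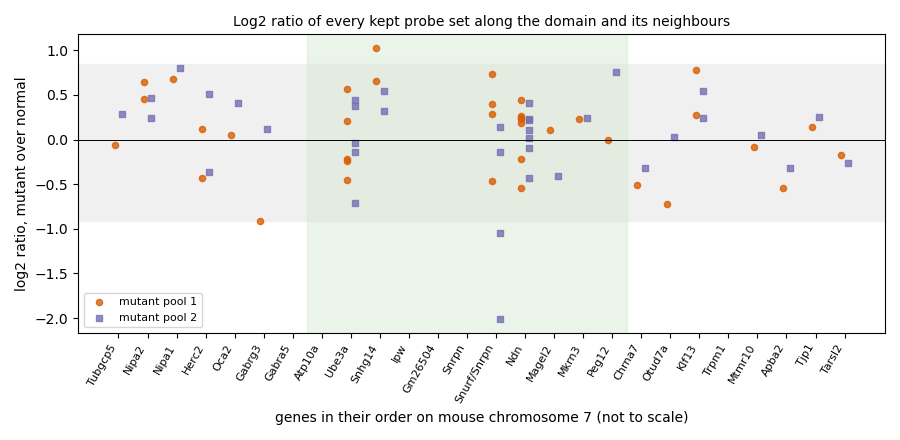
Log2 ratio of mutant over normal (vertical axis) for every kept probe set of the domain and its neighbours, in gene order on chromosome 7 and not to scale; circles are mutant pool 1, squares mutant pool 2, green shading spans the domain and the grey band the 5th to 95th percentile of all kept probe sets. A gene without a point had no kept probe set; the lowest point, -2.01, is 1421063_s_at in mutant pool 2.

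Genes on either side of the domain served as a local comparison. Of 18 neighbours listed, 15 were measured and 13 kept, with a median log2 ratio of 0.11. None was called, 6 were higher (background 32.2%) and 3 lower (background 42.5%) in both mutant pools. At an unadjusted p under 0.05 (limma) there was 1, where the background was 13.6%. That one was Nipa1, a magnesium transporter, which read 183 in the normal pool and 312 and 343 in the mutants (log2 ratio 0.74, SE 0.29, adjusted p = 0.359). A second Nipa1 probe set, under the filter, read 27.1, 126 and 85.6. The adjacent gene Nipa2 read 1689, 2327 and 2352 (0.46, SE 0.19), and its second probe set read 725, 1152 and 865. Beyond the other border, Chrna7, a nicotinic acetylcholine receptor subunit, read 279, 187 and 217 (-0.41), and Apba2 read 159.7, 99.4 and 122 (-0.43). With 1 probe set for each gene, the neighbours ran from -0.43 to 0.74. The members ran from -0.49 to 0.47 over 15 probe sets, several of them of the same gene, so the 2 ranges are not like for like.

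Genes whose products work with or resemble those of the members were measured as lists. For the direction counts below, 32.2% of all kept probe sets were higher and 42.5% lower in both mutant pools. Of the Sm ring partners of SmN, 5 were kept and none was called; none was higher and 3 were lower in both mutant pools (median -0.24). Snrpf read 8032, 5449 and 4212 (log2 ratio -0.74, SE 0.21, limma adjusted p = 0.238), and Snrpb, the closest relative of Snrpn, read 11699, 9345 and 9221 (-0.33). Snrpd3 had -0.24. Of 11 kept genes of other spliceosomal particles and of their SMN assembly machinery, none was called, and Snrpc had -0.44, Gemin2 -0.39, Clns1a -0.21 and Gemin7 -0.11. The neural median in the same pools was -0.46, and its part here was not tested.

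Among 6 kept relatives of Ndn and Magel2 in the MAGE family, 1 rose. Mageb16 read 97.3 in the normal pool and 716 and 611 in the mutants, with a log2 ratio of 2.42 (SE 0.28, limma adjusted p = 0.0436). No probe set of the array was called without the filter on dim probe sets or without a trend of variance, so this call rests on both choices. Mageh1 (0.46), Nsmce3 (0.14) and Maged2 (-0.32) were not called. The same pools had a yolk sac endoderm median of 2.93, and its part in the Mageb16 value was not tested. Among 10 kept partners of necdin and MAGEL2 none was called. Vps35 and Vps26a code for subunits of the retromer complex that returns proteins from endosomes. They had 0.66 (SE 0.15) and 0.70 (SE 0.22), each at an unadjusted p under 0.05 (limma, background 13.6%). A second kept Vps35 probe set differed between the mutant pools, with 1.89 in pool 1 and -0.11 in pool 2. Vps29 had 0.39 and Ngfr -0.36.

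Of the other makorins, Mkrn1 read 2193, 1359 and 1401 (log2 ratio -0.66, SE 0.20, limma adjusted p = 0.274) and Mkrn2 had 0.12. None of 10 kept genes of the Frat and GSK3 group was called, with Dvl2 at -0.38, Axin2, a Wnt target, at -0.35, Axin1 at 0.29 and Frat2 at -0.30. Of 21 kept HECT ligases related to Ube3a, 15 were higher (background 32.2%) and 1 lower (background 42.5%) in both mutant pools. Their median was 0.22 and none was called. Herc2, also listed as a neighbour and as a UBE3A partner, counted among those higher by its brightest probe set. A second kept Herc2 probe set was lower in both mutant pools (-0.43 and -0.36). Herc3 read 170.3, 371 and 506 (1.20, SE 0.31), Herc6 also had 1.20, Herc1 0.58 and Ube3c 0.44. Among 10 kept partners and substrates of UBE3A none was called, with Arhgef15 at 0.57, the ubiquitin-conjugating enzyme gene Ube2d3 at 0.51, Ring1 at -0.36 and Rad23b at 0.35.

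The flippase relatives of Atp10a, with their CDC50 subunits, had a median of 0.36 over 12 kept genes, 8 higher and 2 lower in both mutant pools and none called. Tmem30b, a CDC50 subunit, read 259, 743 and 962 (log2 ratio 1.59, SE 0.28, limma adjusted p = 0.107). Tmem30a, the widely expressed subunit, read 886, 1648 and 1618 (0.86, SE 0.21). Atp10d, another flippase of the Atp10 group, read 91.1, 195 and 439 (1.41, SE 0.49), and Atp9a had 0.83. The yolk sac endoderm median in these pools was 2.93, and its part here was not tested.

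Imprinted genes of other maternally marked domains gave the setting for these values. Of 15 kept genes expressed from the paternal allele elsewhere, 11 were higher and none lower in both mutant pools, 1 was called (Plagl1, a zinc finger transcription factor, 1.86, SE 0.21) and the median was 0.49. Of 13 kept genes expressed from the maternal allele elsewhere, 11 were lower and 2 higher in both, 2 were called and the median was -0.89. Those 2 were Cdkn1c, a cyclin-dependent kinase inhibitor (-5.69), and Igf2r, a receptor that removes IGF2 (-3.07). The median of the 4 paternally expressed members here was 0.20, and Ube3a read -0.46 in its brightest probe set and -0.020 as the mean of its kept ones. Whether the domain differs from the others was not tested.

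**Figure D4:**
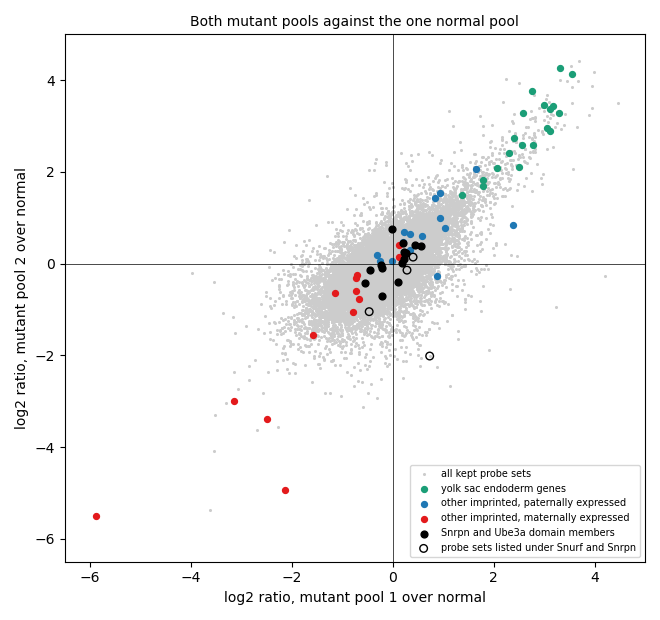
Log2 ratio over the normal pool in mutant pool 1 (horizontal axis) against mutant pool 2 (vertical axis) for all 27022 kept probe sets (grey), with members in black, probe sets listed under Snurf and Snrpn as open circles, yolk sac endoderm genes in green and other imprinted genes in blue (paternal) and red (maternal). Both axes share the normal pool, so the diagonal spread is built in; the members lie within 1 log2 unit of 0 on both axes.

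Likeness of pattern could be judged only over 2 ratios. The probe sets nearest to the Snrpn one, 1432096_at (0.59 in mutant pool 1 and -0.23 in mutant pool 2), were those of Adam17, Dctn4, Slc19a2, Cited2 and Babam2, at distances of 0.0076 to 0.048 log2 units. With 32 kept single-gene probe sets within 0.1, this order carried little information.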

How the data were processed

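RNA of 3 whole embryo pools was measured on Affymetrix arrays after Trizol extraction and biotin labelling, per the labels' protocols. The deposited file gives linear intensity, with 1 signal for each probe set on each array, made with GCOS and MAS5 (versions not given) per the submitters' processing notes. The trimmed mean (2% off both ends) lay between 500.002 and 500.003 on the 3 arrays, so the arrays had been scaled alike. Such scaling assumes equal total signal in all pools. The genome build is not given in the sources used here.

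Affymetrix controls (64) were not used. Gene names came from the platform annotation, where 34945 probe sets had 1 symbol, 932 several and 9160 none listed; gene identifiers changed 0 symbols. The 20th percentile of signal, as its median over arrays, gave the pseudocount of 31.92. Limma 3.58.1 (R 4.3.3) was fitted with a variance trend, two-sided, over 27022 kept probe sets, with 4.52 prior degrees of freedom. Lists used each gene's brightest kept probe set, and no set test was run. Scripts were tested on simulated data. Every member probe set is named; from other lists, all called genes, otherwise up to 4 with the largest difference in the less changed mutant pool; tissue marker lists are given by counts and called genes alone. Members and lists were chosen with earlier results of these data known. Alternatives covered the pseudocount, the filter, scaling, the variance trend, each mutant pool left out and the rule for several probe sets. Promoter windows came from RefSeq by symbol (GRCm38.p6) and were described only.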

Additional observations from a re-analysis of the deposited data

How the results depend on the processing

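No member probe set was called under any of the settings that allowed a test: 3 other pseudocounts, no filter, a filter at the 60th percentile, median centring, quantile normalization, cyclic loess and no variance trend. The lowest adjusted p of a member then lay between 0.343 and 0.496 (limma), and at an unadjusted p under 0.05 there was 1 member without the filter and 1 with cyclic loess. None was 2-fold different in both mutant pools under those settings. The median of the paternally expressed members, 0.20, was 0.19 with the pseudocount doubled, 0.22 with a pseudocount of 1, 0.18 without the filter, 0.17 with the stricter filter, 0.28 with median centring, 0.26 with quantile normalization, 0.26 with cyclic loess, 0.16 with the mean of probe sets and 0.24 with the probe sets listed under both symbols (added after the data were seen). This median ranged from 0.17 to 0.18 when a mutant pool was left out, although Magel2 and Peg12 moved more, as given below. The maternal value, which is Ube3a alone, became -0.020 with the mean of probe sets and -0.27 without the filter, where Atp10a enters, and ranged from -0.71 to -0.21 when a mutant pool was left out. The 25 genes called on the other lists became 0 without the filter and 0 without the variance trend, where 4874 and 3455 probe sets of the array had an unadjusted p under 0.05.

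Leaving out 1 mutant pool leaves 1 array against 1 and no test. Without mutant pool 1, 1415896_x_at (Snurf and Snrpn) turned to -0.14, Magel2 read -0.41, Peg12 0.75 and 1421063_s_at -2.01. Without mutant pool 2, Magel2 turned to 0.11, Peg12 to -0.0099 and 1421063_s_at (Snurf and Snrpn) to 0.73. Under other scalings none of the 15 kept member probe sets, the 4 kept ones of Snurf and Snrpn jointly or the 2 kept ones of Snhg14 changed sign; those under the filter were not rerun. No paired analysis was possible because the normal group is 1 array with no replicate number. Atp10a and the probe set of Snrpn alone lay under the filter and were left out of the main test. Without the filter all 22 member probe sets were tested and none was called.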
